A study of Mus musculus with 6 samples.

Results

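The keratins described here are Krt14, Krt5, Krt15 and Krt17 of basal and stressed stratified epithelium, Krt8, Krt18 and Krt19 of simple epithelium, and Krt7, Krt20 and Krt23 of ducts and mucosa. They were chosen as every probe set whose platform annotation named 1 of these 10 genes alone, which gave 15 of the 45101 probe sets on the array. The 10 genes are among 18194 genes measured with 1 probe set taken per gene, the brightest on average. Krt14 was singled out earlier for its high signal in the I1 line against the parent, so that contrast is given below as a description with no test.

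The samples are 6 Affymetrix mouse arrays from cultured hepatocellular carcinoma cells, 2 each of M1, I1 and BL185. M1 and I1 are migratory subpopulations selected from BL185, each called a subclone line in the sample titles, and BL185 is their unselected parent. All 3 lines were grown in DMEM with 10% FBS, and no treatment or genetic change distinguishes them in the labels. An unselected subclone was not measured, so selection and cloning cannot be told apart, and whether the 2 arrays of a line are separate cultures is not given, so p-values measure a spread that may be technical.

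Keratins are the intermediate filament proteins of epithelia. Each filament is built from obligate pairs of a type I and a type II chain, and the pairs mark the kind of epithelium: Krt8 with Krt18 in hepatocytes and other simple epithelia, with Krt19 and Krt7 added in bile ducts, and Krt5 with Krt14 in the basal layer of skin and other stratified epithelia. Adult hepatocytes are known for Krt8 and Krt18 alone, and Krt19 and Krt7 are standard markers of biliary cells and of liver progenitors.

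The windows around the annotated starts of both type II and type I partners are shown for the pair with signals at the top of the arrays (Krt8, Krt18) and for the basal pair, of which Krt14 differed between lines and Krt5 stayed near the array medians. They come from RefSeq, build GRCm38.p6, and run 5′ to 3′ from 250 bases before to 50 bases after the start. Capitals mark matches, on either strand, to the TATA core TATAA or to the AP-2 motif GCCNNNGGC.
Krt8, chr15:102004293-102004592, minus strand: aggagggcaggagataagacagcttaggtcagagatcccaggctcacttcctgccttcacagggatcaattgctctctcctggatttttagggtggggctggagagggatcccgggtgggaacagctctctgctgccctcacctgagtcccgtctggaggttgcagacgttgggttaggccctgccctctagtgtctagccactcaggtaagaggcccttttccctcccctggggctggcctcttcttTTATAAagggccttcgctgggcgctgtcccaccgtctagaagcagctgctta
Krt18, chr15:102027966-102028265, plus strand: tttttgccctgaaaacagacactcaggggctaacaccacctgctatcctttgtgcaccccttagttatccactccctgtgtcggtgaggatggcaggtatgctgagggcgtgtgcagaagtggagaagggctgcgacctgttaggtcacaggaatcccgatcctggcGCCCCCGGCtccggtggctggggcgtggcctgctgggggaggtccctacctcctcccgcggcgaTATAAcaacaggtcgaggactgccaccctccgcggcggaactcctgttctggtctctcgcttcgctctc
Krt14, chr11:100205981-100206280, minus strand: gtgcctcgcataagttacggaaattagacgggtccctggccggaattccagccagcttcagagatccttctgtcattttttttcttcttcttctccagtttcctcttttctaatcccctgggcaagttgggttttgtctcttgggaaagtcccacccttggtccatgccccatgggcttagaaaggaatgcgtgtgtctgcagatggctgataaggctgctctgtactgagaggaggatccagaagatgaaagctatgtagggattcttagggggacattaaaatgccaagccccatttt
Krt5, chr15:101712856-101713155, minus strand: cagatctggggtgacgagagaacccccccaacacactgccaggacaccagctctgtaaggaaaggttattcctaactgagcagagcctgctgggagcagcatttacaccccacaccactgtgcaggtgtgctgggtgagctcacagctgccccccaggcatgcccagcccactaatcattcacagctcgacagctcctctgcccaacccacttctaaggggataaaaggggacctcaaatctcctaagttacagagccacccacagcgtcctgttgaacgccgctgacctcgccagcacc

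Of the 10 keratins, 7 had such a window. The Krt14 window starts at an annotated start 1480 bases inside the gene's outermost start in the same table, so the sequence before that outermost start is not shown. The searched motifs were the TATA core TATAA, AP-1 (TGANTCA), AP-2 (GCCNNNGGC) and the GC box (GGGCGG), of which 24.9%, 7.81%, 16.6% and 35.7% of all 32851 windows of this length hold at least 1 match. The Krt8 window held 2 overlapping TATA core matches in the same stretch, 1 on each strand. Their first bases lie at -2 and -1 from the annotated start, so they run across it. The Krt18 window held 1 TATA core match from -19 and 1 AP-2 match from -83. The Krt14 and Krt5 windows held 0 matches to these 4 strings, which says only that these letters are not in these windows.

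The arrays were not equally alike. Over probe sets, which are no independent replicates, the M1 arrays correlated at r = 0.910, the I1 arrays at 0.994 and the BL185 arrays at 0.997. M1 replicate 1 had the most compressed range, with 1797 probe sets above a log2 signal of 12, against 3270 on M1 replicate 2. The count was 2629 and 2988 in I1 and 3317 and 3256 in BL185, so the I1 arrays were narrower than BL185 too. The SD over probe sets was 1.62 and 1.94 in M1, 1.83 and 1.88 in I1, and 1.97 and 1.95 in BL185. The 3′ control for 18S ribosomal RNA read 12.50 and 10.68 in M1, 11.27 and 11.51 in I1, and 10.11 and 10.14 in BL185, and the 3′ minus 5′ signal of Actb was 1.43 and 1.24 in M1, 1.47 and 1.43 in I1, and 1.08 and 0.88 in BL185. Both measures were thus higher in the selected lines. Their part in the keratin differences was not tested. Array medians lay between 7.87 and 8.11, and without detection calls a signal near or below them cannot be told from background.

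The labelled cell type was checked on markers. Hnf4a, the master transcription factor of hepatocytes, read 11.94 and 12.76 in M1, 13.01 and 13.34 in I1, and 12.83 and 12.91 in BL185, and Apob, the structural protein of hepatic lipoproteins, read 10.88 to 12.71 over all 6 arrays. By contrast Alb, serum albumin, read 8.43 and 7.66 in M1, 8.07 and 8.10 in I1, and 7.60 and 7.53 in BL185, and Afp, the fetal albumin of many liver cancers, was at 9.89 on M1 replicate 1 and between 7.14 and 7.99 elsewhere. Albumin and alpha-fetoprotein, defining markers of hepatocytes and of many hepatocellular carcinomas, were therefore near the array medians on all arrays other than M1 replicate 1. Of 9 hepatocyte markers, 5 lay above the median of every array.

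Krt14, the type I keratin of basal keratinocytes, was the member with the widest spread between lines. Its brightest probe set, 1423935_x_at, read 8.90 and 9.43 in M1, 11.89 and 11.83 in I1, and 7.56 and 7.62 in BL185. The lines did not overlap: both I1 arrays were highest, both M1 arrays lay between, and both BL185 arrays lay below the array medians. In means, Krt14 was 9.17 ± 0.38 in M1, 11.86 ± 0.04 in I1 and 7.59 ± 0.04 in BL185 (log2 signal, SD, n = 2).

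In I1 the Krt14 signal was 4.27 ± 0.23 log2 units above BL185 (SE of the fit), a ratio of 19.2, and 2.69 ± 0.23 above M1. Both sizes are descriptions, since Krt14 was chosen on the I1 arrays, and neither the I1 nor the M1 size against BL185 is exact, because the BL185 signal lay below the array medians. In M1, whose arrays did not choose it, Krt14 was 1.58 ± 0.23 log2 units above BL185, a ratio of 2.98 with a 95% interval of 1.00 to 2.16 log2 units, and both M1 arrays lay above both BL185 arrays. By limma with Benjamini-Hochberg adjustment over 18194 genes this did not pass 0.05 (adjusted p = 0.061). It passed after cyclic loess (1.84, adjusted p = 0.00244), quantile normalization (1.46, 0.014) and median centring (1.58, 0.0455), and with the gene's probe sets averaged (1.06, 0.0332). It did not pass with 50 added to the linear value (1.36, 0.0706), with the replicate block (0.106), with array weights (0.0642), without BL185 replicate 1 (0.693) or 2 (0.654), or without either I1 array (0.282 each). With M1 replicate 1 left out the M1 change was 1.84, and with M1 replicate 2 left out it was 1.31. There M1 is 1 array and the spread is taken from I1 and BL185, so no p-value is given. The BL185 arrays of the M1 test are those against which the I1 signal was noticed. Its spread was pooled over all lines, so it includes the I1 arrays that chose Krt14 (SD 0.04 in I1, against 0.38 in M1). The M1 p-values are therefore not independent of that choice. Fitted to the M1 and BL185 arrays alone, 0 genes passed limma, Krt14 included.

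Krt14 has 3 probe sets of its own, and they did not all show this. The second, 1460347_at, read 8.79 and 8.84 in M1, 10.81 and 10.84 in I1, and 7.45 and 7.58 in BL185, in the same order of lines as the first. Its M1 change was 1.30 ± 0.14, which passed limma when every 1-gene probe set was tested on its own (adjusted p = 0.0418), and its I1 signal was 3.31 above BL185. The third, 1455573_at, read 7.87 and 7.40 in M1, 7.61 and 7.67 in I1, and 7.32 and 7.34 in BL185, all below the array medians. A further probe set, 1427841_at, is annotated to Krt17 and Krt14 together and so stands outside the rule. It read 8.55 and 8.15 in M1, 8.10 and 8.28 in I1, and 7.71 and 7.95 in BL185. The order of I1 above M1 above BL185 thus rests on 2 of the 4 probe sets that name Krt14. The suffix of the brightest marks a probe set whose probes may match other transcripts as well, which the second does not carry.

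**Figure D1:**
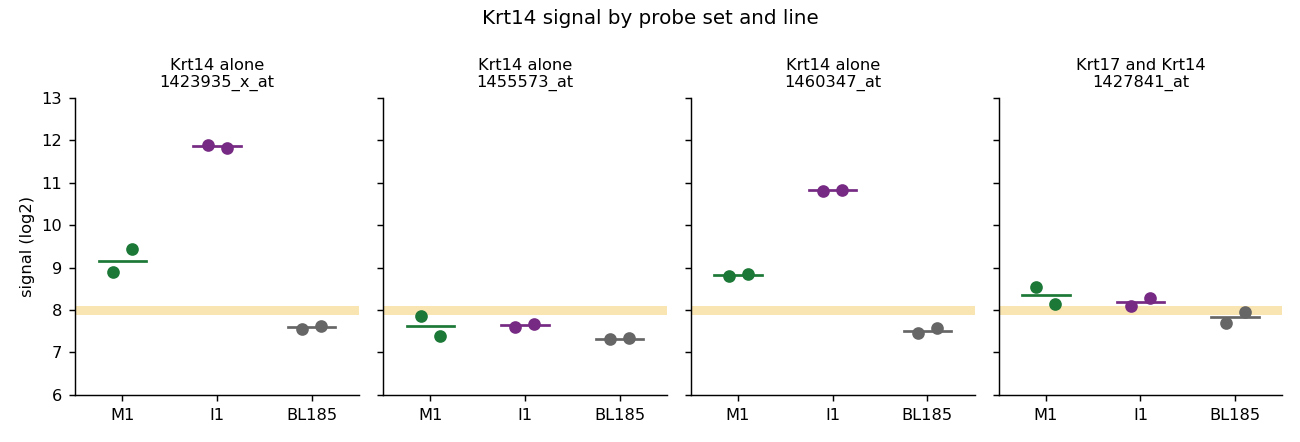
Log2 signal of the 3 probe sets that name Krt14 alone and of the probe set that names Krt17 and Krt14, with 1 point per array, a line at each mean of 2 arrays and a yellow band over the array medians (7.87 to 8.11). In 1423935_x_at and 1460347_at both I1 points (11.89 and 11.83, and 10.81 and 10.84) lie above both M1 points, and these above both BL185 points; the other panels stay near the band.

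Krt5, the type II chain that pairs with Krt14 in basal cells, did not share its pattern. It read 8.45 and 7.91 in M1, 8.08 and 8.33 in I1, and 8.015 and 8.005 in BL185. The M1 arrays lay on either side of the BL185 arrays, and every value was close to the array medians. The M1 change was 0.17 ± 0.24 (95% interval -0.44 to 0.79, adjusted p = 0.663 by limma), and the I1 mean was 0.19 above BL185.

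Krt15, a type I keratin of basal cells and hair follicle stem cells, read 7.996 and 7.57 in M1, 7.94 and 7.89 in I1, and 7.31 and 7.48 in BL185. Both selected lines lay above BL185, by 0.39 ± 0.21 in M1 (95% interval -0.15 to 0.92, adjusted p = 0.422) and by 0.51 ± 0.21 in I1, at signals at or below the array medians. Krt17, a type I keratin of wounded epidermis and skin appendages, lay below the array medians on every array, at 7.72 and 6.49 in M1, 7.16 and 6.71 in I1, and 6.62 and 6.59 in BL185. Here M1 replicate 1 stood above all other arrays and M1 replicate 2 below all of them, so the M1 mean change of 0.50 ± 0.44 (adjusted p = 0.511) rests on 1 array and was -0.12 without it. The second Krt17 probe set read between 6.19 and 6.71 on all 6 arrays.

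Krt8, the type II keratin of simple epithelia, lay at the top of the signal range in every line. It read 14.96 and 15.14 in M1, 15.14 and 15.23 in I1, and 14.94 and 14.96 in BL185, which is 0.13 to 0.46 below the brightest probe set of each array, with 9 to 84 probe sets above it. The I1 mean was 0.23 ± 0.17 above BL185 and the M1 mean 0.10 ± 0.17 above it (95% interval -0.33 to 0.53, adjusted p = 0.72). Its other probe sets, 1423691_x_at and 1435989_x_at, read 14.74 to 15.11, with I1 above BL185 by 0.29 and 0.28, and the I1 arrays lay above both BL185 arrays in all 3 probe sets.

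Krt18, the type I partner of Krt8, read 14.78 and 14.93 in M1, 14.84 and 14.96 in I1, and 14.87 and 14.88 in BL185. All 3 lines overlapped, and the M1 change was -0.02 ± 0.17 (95% interval -0.45 to 0.41, adjusted p = 0.948). Krt19, the small type I keratin of bile duct and progenitor cells, read 14.59 and 14.77 in M1, 15.04 and 15.08 in I1, and 14.97 and 15.01 in BL185. Both M1 arrays were below both BL185 arrays and both I1 arrays just above them. The M1 change was -0.31 ± 0.17 (95% interval -0.74 to 0.12, adjusted p = 0.423), the I1 difference from BL185 was 0.07, and I1 was 0.38 ± 0.17 above M1 (adjusted p = 1.00). On the top of the range, 60 to 103 probe sets were brighter than Krt18 and 27 to 131 brighter than Krt19. There the array squeezes differences, so a true difference in these 3 keratins may read as smaller than it is.

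Vimentin (Vim), the intermediate filament of mesenchymal cells, was named after its values were seen because it shared this position. It read 14.66 and 14.97 in M1, 14.85 and 15.02 in I1, and 14.70 and 14.83 in BL185. Transcripts of Krt8, Krt18 and Krt19 and of vimentin were therefore all near the ceiling of the arrays in each of the 3 lines.

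Krt7, the type II keratin of ductal epithelium, was dim. It read 7.42 and 6.91 in M1, 6.89 and 7.08 in I1, and 6.80 and 6.82 in BL185, all at least 0.68 below the median of its array. The M1 change was 0.35 ± 0.23 (adjusted p = 0.448) at a signal that cannot be told from background.

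Krt20, a type I keratin of intestinal and urothelial surface cells, was clearly above the medians. It read 10.22 and 10.93 in M1, 11.22 and 11.41 in I1, and 11.44 and 11.47 in BL185. Both M1 arrays lay below every array of the other lines, and the M1 change was -0.88 ± 0.27 (95% interval -1.57 to -0.18), which did not pass limma over all genes (adjusted p = 0.247). Without M1 replicate 1 the M1 change was -0.53, and without M1 replicate 2 it was -1.23. After cyclic loess it was -0.39 (adjusted p = 0.173) and after quantile normalization -0.43 (0.116), neither of which passed. The I1 mean was 0.14 below BL185 as deposited, but 0.088 above it after cyclic loess and 0.087 above it after quantile normalization. It was 0.74 ± 0.27 above M1 (adjusted p = 1.00).

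Krt23, a type I keratin described in mouse liver as stress-inducible, read 9.90 and 8.13 in M1, 8.71 and 8.70 in I1, and 8.90 and 8.78 in BL185. M1 replicate 1 was the highest of the 6 arrays and M1 replicate 2 the lowest. The M1 mean change of 0.18 ± 0.57 (95% interval -1.27 to 1.62, adjusted p = 0.853 by limma) became -0.71 without M1 replicate 1 and 1.06 without M1 replicate 2. The direction of Krt23 in M1 is therefore set by which array is kept.

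**Figure D2:**
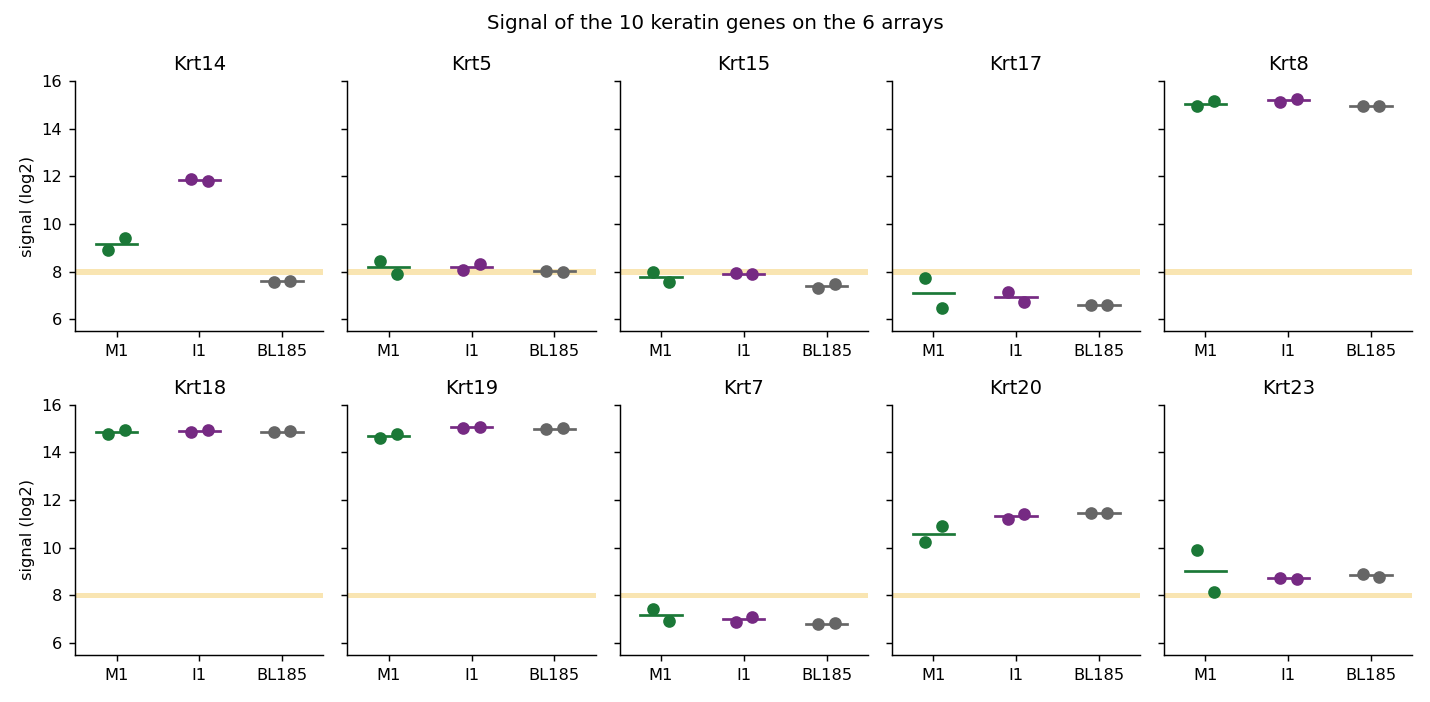
Log2 signal of the 10 keratins with 1 point per array, a line at each mean of 2 arrays and a yellow band over the array medians (7.87 to 8.11). Krt8, Krt18 and Krt19 sit between 14.59 and 15.23 in all lines, Krt5, Krt15, Krt17 and Krt7 lie near or below the band, and Krt14 is the member whose 3 lines are farthest apart.

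Of the 10 keratins, 0 differed between M1 and BL185 at an adjusted p under 0.05 by limma, while 160 of 18194 genes did, or 0.879% (0.275% higher and 0.605% lower). At an unadjusted p under 0.05 the members counted 2, Krt14 and Krt20, and the genes 2798. With M1 replicate 1 left out, 3 of 10 passed (Krt14 higher, Krt20 and Krt23 lower), where 24% of all genes did (11.7% higher and 12.3% lower), and with M1 replicate 2 left out 8 of 10 and 12879 of 18194 genes passed. In both cases M1 is 1 array, and its spread is taken from I1 and BL185. Arrays of M1 lay wholly above BL185 for 3 members, against 26.2% of all genes, and wholly below for 2, against 25.7%. These shares of the 10 keratins are near those of all genes.

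In I1 against BL185, the contrast in which Krt14 was noticed, 1 of 10 members passed, beside 0.511% of all genes (0.192% higher and 0.319% lower), and nothing is read from that count. Krt14 was that member. The I1 arrays lay wholly above BL185 for 7 members, against 42.6% of all genes, and wholly below for 2, against 33.5%. Krt14, chosen in this contrast, is among the 7, so nothing is read from that count either. Among these 7, Krt5, Krt15, Krt17 and Krt7 were near or below the array medians. Their I1 differences were 0.19, 0.51, 0.33 and 0.18 as deposited, and 0.03, 0.35, 0.21 and 0.06 after cyclic loess. The part of the narrower I1 range in this was not tested. With M1 replicate 1 left out of the fit, 46.6% of all genes passed (22.5% higher and 24.1% lower), and nothing is read from the 2 members among them, Krt14 and Krt15. The other 9 keratins differed from BL185 by -0.14 to 0.51 in I1, with a median of 0.18, and by -0.88 to 0.50 in M1, with a median of 0.17. The median of all genes was 0.06 in I1 and 0.07 in M1. These comparisons share the BL185 arrays. Of all calls, 31.2% were higher in M1 and 37.6% in I1 as deposited, 46% and 48.5% after cyclic loess, and 52.6% and 59.1% after quantile normalization.

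Between the selected lines 0 of 10 members and 0% of all genes passed for I1 minus M1 by limma. Krt14, chosen on the I1 arrays, is among the members counted in this contrast, and its values there are a description. At an unadjusted p under 0.05 there were 2 members, Krt20 beside Krt14, and 409 genes. Arrays of I1 lay wholly above M1 for 3 members (Krt14, Krt19 and Krt20), against 8.13% of all genes, and wholly below for 0 members, against 7.96%. Krt14 was chosen for its I1 signal, so nothing is read from the first of these counts. With M1 replicate 1 left out 20.6% of all genes passed (7.19% higher and 13.4% lower), and of the members Krt23 beside Krt14 (0.58 ± 0.14 higher in I1, adjusted p = 0.0103). With M1 replicate 2 left out, Krt23 was -1.19. In both fits M1 is 1 array and the spread is taken from I1 and BL185, so no p-value is given.

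**Figure D3:**
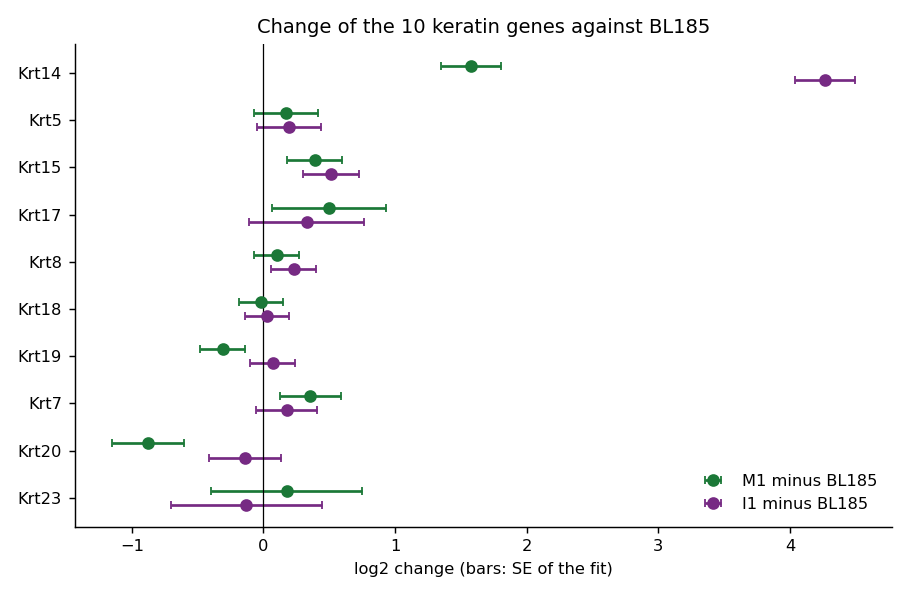
Log2 change of the 10 keratins in M1 and in I1, each minus BL185, with bars for the SE of the fit over all 6 arrays. Krt14 stands at 1.58 in M1 and 4.27 in I1, and the other 9 lie between -0.88 and 0.51.

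The gap between the M1 arrays went with signal. The 5 members with a mean signal under 9 (Krt5, Krt15, Krt17, Krt7 and Krt23) had their highest value of the 6 arrays on M1 replicate 1, as did 60% of the 9468 genes in that range. Of the 5 brighter members, Krt18, Krt19 and Krt20 had their lowest value there, as did 72.7% of 8581 genes between 9 and 14 and 66.9% of 145 genes at 14 or more. M1 replicate 1 was 0.42 to 1.78 above M1 replicate 2 for the dim members and 0.15 to 0.70 below it for the bright ones, Krt14 included. The part of this compression in each M1 change was not tested beyond leaving the array out.

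**Figure D4:**
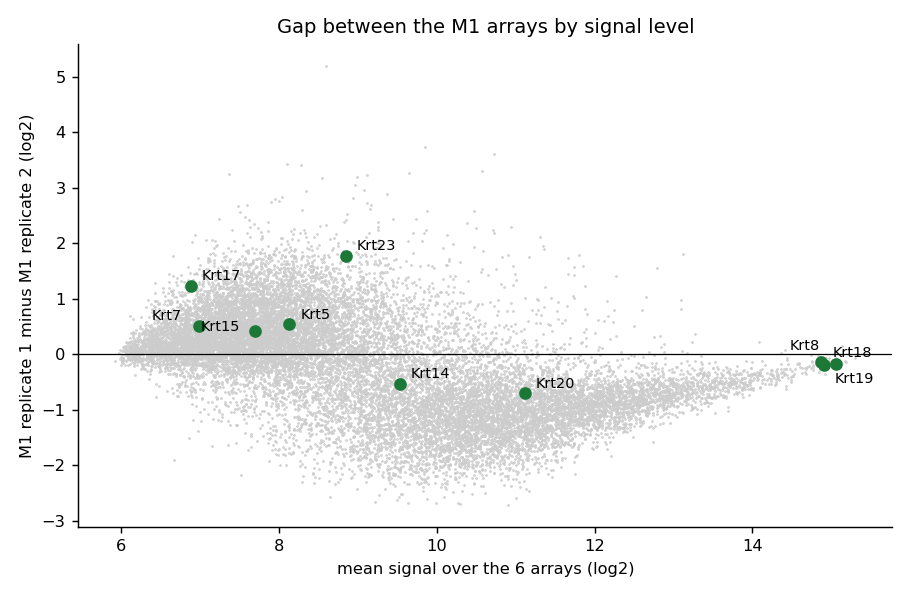
Signal of M1 replicate 1 minus M1 replicate 2 (log2) against the mean over 6 arrays, with all 18194 genes in grey and the 10 keratins in green. Dim keratins lie above 0, up to 1.78 for Krt23, and those with a mean above 9 lie below 0, down to -0.70 for Krt20, along with most genes of their signal.

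In the genome the type I members Krt14, Krt15, Krt17, Krt19, Krt20 and Krt23 lie on chromosome 11, and the type II members Krt5, Krt7 and Krt8 lie on chromosome 15 together with Krt18, which is next to Krt8. The protein-coding neighbours of Krt14 are Krt9, which was not analysed here, and Krt16, followed by Krt19 and Krt17. Krt16, a type I keratin of stressed epidermis, read 8.27 and 7.27 in M1, 8.03 and 7.97 in I1, and 7.07 and 7.13 in BL185. Its change was 0.67 in M1 (adjusted p = 0.412) and 0.90 in I1. The signal of Krt14 in I1 was thus not matched in size by any measured neighbour within 2 genes, whose I1 differences from BL185 were 0.07, 0.90 and 0.33.

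The genes whose 6 values were most like those of Krt14, by Euclidean distance after each gene was centred on its mean, were Mcpt1, a mast cell protease (distance 1.36), Krt79, a type II keratin of hair follicle ducts (1.40), S100a4, a calcium-binding protein (1.68), Sptssb, a subunit of serine palmitoyltransferase (1.69), and C9, a terminal complement component (1.88). Across the 6 arrays their r with Krt14 was 0.996, 0.962, 0.928, 0.983 and 0.955, a description over arrays of 3 lines. Krt79, on the type II side of the family, read 8.72 and 10.32 in M1, 11.66 and 11.86 in I1, and 8.63 and 8.65 in BL185. Both its I1 arrays were above all others and the M1 arrays lay far apart. The M1 change was 0.88 ± 0.53 (adjusted p = 0.435), and I1 was 3.12 above BL185.

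Of 36 other keratins measured, 0 rose and 0 fell in M1 or in I1 over all genes by limma. An unadjusted p under 0.05 was reached by 2 and 6 of them, beside 2798 and 2119 of all 18194 genes. The median change of the 36 was 0.21 in M1 and 0.24 in I1, beside 0.07 and 0.06 for all genes, and 12 of the 36 lay above the median of every array. Without M1 replicate 1 the medians were 0.09 in M1 and 0.24 in I1, beside 0.03 and 0.06 for all genes. The 3 with the highest mean signal were Krt42, Krt79 and Krt80. Krt42 read 10.72 and 10.22 in M1, 10.12 and 10.36 in I1, and 9.84 and 10.18 in BL185, and Krt80, a type II keratin of differentiating epithelia, read 9.16 and 10.09 in M1, 9.73 and 9.86 in I1, and 10.71 and 10.56 in BL185. Krt6a, a stress keratin named after its values were seen, read 9.63 and 10.93 in M1, 10.01 and 9.84 in I1, and 8.17 and 8.30 in BL185, by a probe set that lay above BL185 by 2.05 ± 0.44 in M1 (adjusted p = 0.127) and by 1.69 in I1. Krt6a and its neighbour Krt6b are near-identical copies, which a probe set may not separate.

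Genes that hold keratin filaments at desmosomes and hemidesmosomes showed no call either. Of 24 anchors and linkers, 0 passed in M1 or I1 by limma, with medians of -0.03 and 0.07. An unadjusted p under 0.05 was reached by 5 and 4 of them, beside 2798 and 2119 of all 18194 genes. Of the 24, 11 changes were above 0 in M1 and 13 in I1. Dsp, desmoplakin, which ties keratins to desmosomes, read 11.90 and 12.93 in M1, 12.41 and 12.78 in I1, and 12.65 and 12.75 in BL185. Plec, plectin, read 12.87 and 13.34 in M1, 12.71 and 12.75 in I1, and 12.48 and 12.44 in BL185. Jup and Ppl, also named after their values were seen, lay above BL185 in both lines without passing limma. Jup changed by 0.92 in M1 and 1.02 in I1, and Ppl by 1.34 in each (adjusted p = 0.0800 and 0.0996). Without M1 replicate 1 the medians of the 24 were 0.06 in M1 and 0.07 in I1, beside 0.03 and 0.06 for all genes. Of 15 other intermediate filament genes 0 passed in either line by limma, with medians of 0.27 and 0.18. In each line 1 reached an unadjusted p under 0.05, beside the same 2798 and 2119 genes. Without M1 replicate 1 the medians were 0.16 in M1 and 0.18 in I1, beside 0.03 and 0.06 for all genes.

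Basal and stratified epithelium genes were examined because Krt14 belongs to that programme in skin. Of 25 measured, 0 passed in M1 or I1 by limma and 5 and 8 reached an unadjusted p under 0.05, with medians of 0.36 and 0.37. Without M1 replicate 1 the medians were 0.06 in M1 and 0.37 in I1, beside 0.03 and 0.06 for all genes. Over all 18194 genes, 2798 in M1 and 2119 in I1 reached an unadjusted p under 0.05. Named after their values were seen, Trp63, the transcription factor p63 that drives basal keratins in skin, read 8.77 and 7.61 in M1, 7.88 and 7.93 in I1, and 7.40 and 7.53 in BL185. All but M1 replicate 1 were at or below the array medians. Sprr1a, a cornified envelope protein, was at 14.51 and 14.75 in M1, 14.46 and 14.43 in I1, and 14.89 and 14.92 in BL185, close to the ceiling. Grhl3, a grainyhead factor of surface epithelium, was at 9.36 and 10.16 in M1, 9.78 and 10.05 in I1, and 7.94 and 7.81 in BL185, 1.89 above BL185 in M1 (adjusted p = 0.0746). Klf4 and S100a14, named in the same way, lay below BL185 in both lines. Klf4 read 10.01 and 11.46 in M1, 11.03 and 11.31 in I1, and 12.85 on both BL185 arrays. S100a14 read 8.41 and 9.28 in M1, 10.58 and 10.39 in I1, and 10.86 and 10.84 in BL185. Neither passed limma in M1 (adjusted p = 0.146 and 0.0717) or in I1. Of the 25 listed genes, 19 changes were above 0 in M1 and 18 in I1.

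**Figure D5:**
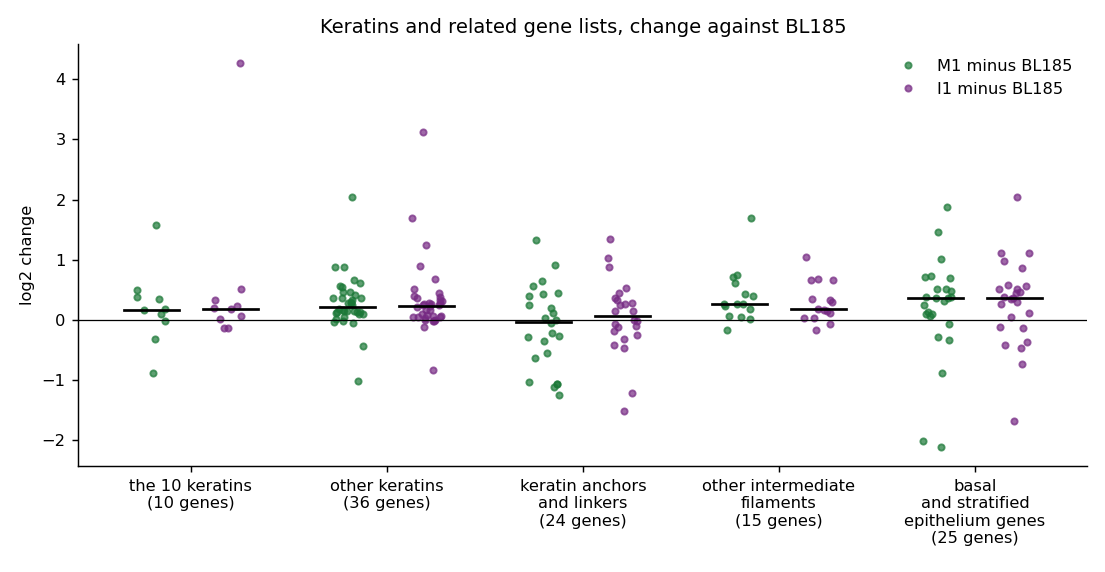
Log2 change in M1 and in I1, each minus BL185, of the 10 keratins and of 4 related lists, with 1 point per gene and a black line at each median. The lists' medians lie between -0.03 and 0.37, and the 2 highest points in I1 are Krt14 at 4.27 and Krt79 at 3.12.

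Markers of other cell types were set beside these values. Of 6 bile duct markers, 1 fell in M1, the ductal transcription factor Sox9 (9.13 and 9.65 in M1, 10.09 and 10.12 in I1, and 11.42 and 11.48 in BL185; adjusted p = 0.0343). The mean level of the list was 8.74 and 8.80 in M1, 9.38 and 9.35 in I1, and 9.30 and 9.40 in BL185. Of 6 fetal liver and progenitor markers Prom1, a progenitor surface protein, fell in both lines, with 7.99 and 8.40 in M1, 8.41 and 8.36 in I1, and 11.19 and 11.05 in BL185 (adjusted p = 0.0168 in M1 and 0.0291 in I1). Of 9 hepatocyte markers the fibrinogen chain Fgb fell in M1 (adjusted p = 0.0469). Of 8 leukocyte markers Cd68 and Cd53 fell in M1 (adjusted p = 0.0148 and 0.0469) and Cd68 also in I1 (0.0262), while the defining leukocyte gene Ptprc read 7.17 on M1 replicate 1 and 6.25 to 6.80 on the other arrays. Of 9 stellate cell and fibroblast markers and 7 endothelial markers 0 passed in either line, and 0 reached an unadjusted p under 0.05. The mean level of the stellate list was 8.19 and 7.84 in M1, 7.92 and 8.03 in I1, and 7.69 and 7.76 in BL185, and that of the endothelial list was 7.60 and 7.27 in M1, 7.34 and 7.33 in I1, and 7.18 and 7.21 in BL185. Without M1 replicate 1, the median M1 changes of these lists ran from -0.18 (bile duct) to 0.16 (stellate), beside 0.03 for all genes. Those in I1 ran from 0.06 (endothelial) to 0.42 (progenitor), beside 0.06 for all genes. The part of these markers in the keratin differences was not tested.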

How the data were processed

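RNA was prepared with a 3′ IVT Express kit for Affymetrix arrays, per the labels' protocols. The deposited values are log2 signals, 1 for each array and probe set, which the authors made with RMA and affy per the submitters' processing notes. Versions and normalization settings are not given in the sources used. The log2 scale was read from the values. Precision is limited by the number of arrays.

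Among the 45101 probe sets, 34958 carried 1 gene name, 932 several and 9160 none (64 others were controls). By Entrez identifier 34754 matched RefSeq (GRCm38.p6), and 0 symbols changed. limma 3.58.1 in R 4.3.3 fitted 1 mean per line to 6 arrays (residual df 3, prior df 2.27), with Benjamini-Hochberg adjustment over 18194 genes per contrast at 0.05. The fit was tested on simulated data with the BL185 spread on every array and changes in I1 only. The wider spread of the M1 arrays was not simulated. Unused columns numbered 0.

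The members, lists and tests were chosen with earlier results of these data known. Named genes were the 10 keratins, up to 4 called members per list, the 3 brightest other keratins and the 5 genes nearest to Krt14. Neighbours of Krt14 were named by position, and all others named (cell type markers, Vim, Trp63, Sprr1a, Grhl3, Klf4, S100a14, Dsp, Plec, Jup, Ppl and Krt6a) after their values were seen. Alternatives varied the probe set, dim-gene filter, normalization, eBayes prior, pairing, arrays and threshold. Array weights and crossed replicate numbers were added after the data were seen.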

Additional observations from a re-analysis of the deposited data

Results flagged for a closer look

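Krt19 stood out because the selected lines lay on opposite sides of the parent: both M1 arrays (14.59 and 14.77) were below both BL185 arrays (14.97 and 15.01), and both I1 arrays (15.04 and 15.08) were above them. I1 was 0.38 above M1 in log2 signal, a difference that did not pass limma (adjusted p = 1.00), and the opposition of the arrays itself was not tested. All 6 values lie within 0.71 of the brightest probe set of their array. The lowest of them is on M1 replicate 1, the array with the most compressed range, as for 66.9% of the 145 genes with a mean of 14 or more. After leaving that array out, I1 was 0.29 above M1. There M1 is 1 array, so no p-value is given.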

How the results depend on the processing

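In M1 against BL185 the 160 calls over all genes became 338 with probe sets averaged per gene, 243 with every probe set, 1820 after cyclic loess, 1170 after quantile normalization, 241 after median centring, 312 with array weights, 5 at an adjusted p of 0.01 and 0 with only the arrays of the lines compared. The keratin count of 0 became 1 with the mean of probe sets, with every probe set and after each of the 3 scalings, and Krt14 was then 1.06 with the mean of probe sets, 1.84 after cyclic loess, 1.46 after quantile normalization and 1.58 after median centring. In I1 against BL185 the 93 calls became 172 with every probe set, 1583 after cyclic loess, 980 after quantile normalization, 8482 with only the arrays compared, 8550 with array weights and 3 at 0.01. The keratin count there was 2 with every probe set (both of Krt14), with only the arrays compared and with array weights, and 0 at 0.01, counts that turn on Krt14, which this contrast chose, and that support nothing. Krt14 in I1 against BL185 was 2.63 with the mean of probe sets, which includes its dim one, 3.95 with 50 added to the linear value, 4.15 after quantile normalization and 4.39 after cyclic loess, and in I1 against M1 it was 1.57 with the mean of probe sets. For I1 minus M1 the count of 0 became 1 among genes with a mean of at least 8, 52 after cyclic loess (1 keratin, Krt14), 4 after quantile normalization and 2 with array weights. Leaving out 1 array at a time gave 0 to 12879 calls for M1, 0 to 8482 for I1 and 0 to 10365 for I1 minus M1, with 0 to 8, 0 to 2 and 0 to 6 keratins, and Krt14 changes of 1.31 to 1.84, 4.24 to 4.30 and 2.43 to 2.96. A line left with 1 array is assumed there to vary like the others.

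The labels do not say that replicate numbers pair the arrays, and deviations correlated at 0.37 (M1 and I1), -0.13 (M1 and BL185) and 0.16 (I1 and BL185), so the numbers were not taken as pairs. With the replicate block the calls were 38 for M1, 1 for I1 and 0 for I1 minus M1, with 0 keratins in each. With the BL185 numbers crossed the block gave 76 calls for M1 and 0 for I1, with 0 keratins.

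Some keratin changes near 0 turned sign, and the cause was not tested. In M1 against BL185, Krt5 was -0.064 after cyclic loess and Krt18 0.071 after quantile normalization. In I1 minus M1, Krt18 was -0.028 after cyclic loess and -0.0038 after quantile normalization. In I1 against BL185, Krt20 was 0.088 after cyclic loess and 0.087 after quantile normalization, and Krt18 was -0.035 after cyclic loess and -0.036 without I1 replicate 2. Over the 6 fits that each left out 1 array, the M1 change ran from -0.10 to 0.44 for Krt5, -0.12 to 1.11 for Krt17, -0.094 to 0.055 for Krt18 and -0.71 to 1.06 for Krt23, with the turned sign without M1 replicate 1. I1 minus M1 ran from -0.25 to 0.29 for Krt5, -0.43 to 0.079 for Krt7, -0.085 to 0.34 for Krt15, -0.79 to 0.45 for Krt17, -0.029 to 0.12 for Krt18 and -1.19 to 0.58 for Krt23, with signs that turned on which M1 array, or for Krt5, Krt17 and Krt18 also I1 replicate 2, was left out.

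Signals near the array medians, which hold Krt5, Krt7, Krt15, Krt17 and the BL185 level of Krt14, and those near the ceiling, which hold Krt8, Krt18 and Krt19, limit what size of change these arrays can show.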
